A study of Mus musculus with 6 samples.

Results

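The transcripts described here are those of 10 genes that carry out testosterone synthesis, from the entry of cholesterol into mitochondria to testosterone and on to oestrogen: Star, Cyp11a1, Cyp17a1, Hsd3b1, Hsd3b6, Hsd17b3, Fdx1, Fdxr, Srd5a1 and Cyp19a1. They were taken by symbol from the deposited gene tables, and the rule uses no measured value, although the set was drawn up with earlier results of these data known. All 10 were listed in each of the 6 libraries and all 10 were kept by the filter on low counts, among 23253 genes listed in any library and 18269 tested. The libraries hold poly(A)-selected RNA of whole testes of C57BL/6 mice aged 8 months. A set of 3 is labelled L3mbtl2 cKO, a conditional knockout of a subunit of the Polycomb complex PRC1.6, and a set of 3 is labelled control. Which Cre removed L3mbtl2, and from which cells, is not stated in the labels, nor are the alleles of the control mice. Whether each library is a different mouse is not stated either, so the p-values below measure only the spread between libraries, which may be partly technical.

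Testosterone is made by Leydig cells, which lie between the seminiferous tubules and answer to luteinising hormone. The steroidogenic acute regulatory protein brings cholesterol to the inner mitochondrial membrane, where the side-chain cleavage enzyme turns it into pregnenolone with electrons passed on by ferredoxin reductase and ferredoxin. Enzymes of the endoplasmic reticulum then carry pregnenolone to androstenedione and testosterone, which can be reduced to dihydrotestosterone or aromatised to oestradiol.

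Against its label, the targeted gene was higher in the libraries labelled cKO. L3mbtl2 averaged 1055 ± 43.0 expected counts in the libraries labelled cKO and 679 ± 24.0 in those labelled control (SD, n = 3 each). Its log2 fold change was 0.67 (SE 0.10). The names of the deposited tables also carry the opposite genotype from the sample titles. Every direction below follows the titles and would turn if they were exchanged. Library totals were 17689205 to 18822050 expected counts. The libraries labelled cKO correlated with each other across genes at 0.981 to 0.982 (log2 CPM), whereas those labelled control did so at 0.937 to 0.972. Control replicate 2 lay about as near to the libraries labelled cKO, at 0.980 to 0.982. Control replicate 3 lay furthest from the rest, at 0.937 and 0.966 with the other controls and 0.923 to 0.927 with the libraries labelled cKO. Medians and counts are therefore also given without control replicate 2 or 3 where that moves them by more than 1.5 times.

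Genes of every step up to testosterone had lower mean levels in the libraries labelled cKO, by 1.71- to 4.06-fold, yet none of the differences passed after adjustment. Of the 10 genes, 8 were lower at an unadjusted p under 0.05 in edgeR's quasi-likelihood test, against 18.8% of all genes tested. Adjusted over all genes the count was 0, where the background was 0% lower and 0% higher. The adjusted p of these 8 genes was 0.166, the lowest value reached by any gene. DESeq2 called 3 of the 10 lower (Fdxr, Cyp17a1 and Hsd17b3), against a background of 7.66% lower and 0.405% higher. Without control replicate 2, edgeR called 8 of the 10 lower, against 20.7% of all genes lower and 11% higher. With any other single library left out, control replicate 3 among them, edgeR called 0 of the 10. The median log2 fold change of the 10 genes was -1.48, beside -0.0048 over all genes tested, and it was -1.82 without control replicate 2 and -0.87 without control replicate 3. In whole tissue, fewer Leydig cells and less RNA per Leydig cell cannot be told apart.

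**Figure D1:**
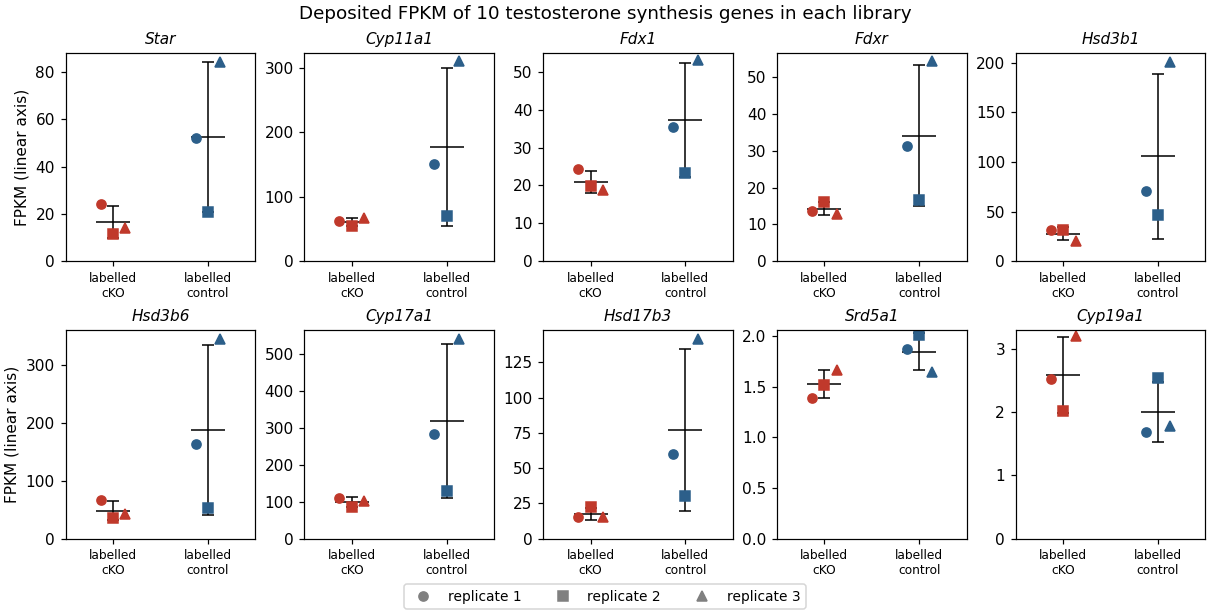
Deposited FPKM of each gene on a linear axis that starts at 0, libraries labelled cKO at left and control at right. Symbols are single libraries by replicate number, and bars give the mean and SD (n = 3). In the 8 genes from Star to Hsd17b3, control replicate 3 is the highest library and control replicate 2 the lowest of its group. Srd5a1 and Cyp19a1 stay below 4 FPKM in all 6 libraries.

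Star marks the first, acutely regulated step. The gene (Entrez 20845, mm10 chromosome 8, 25808474 to 25815982, forward strand) had 24.4, 11.7 and 14.1 FPKM in cKO replicates 1, 2 and 3, against 52.1, 20.8 and 84.5 FPKM in control replicates 1, 2 and 3. FPKM scales a count by transcript length and library depth, so it allows levels of different genes to be compared. The groups overlapped, because cKO replicate 1 lay above control replicate 2. The means were 16.8 ± 6.75 and 52.5 ± 31.8 FPKM (SD, n = 3 each), and edgeR's log2 fold change was -1.53 (SE 0.47, adjusted p = 0.166). An exact two-sided permutation test over the libraries gave p = 0.2; 0.1 is the smallest that 3 against 3 allows. Star varied more within the libraries labelled cKO than any of the other 9 genes did, with a coefficient of variation of 40.3%, against 9.18 to 32.9% for the others.

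Cyp11a1 encodes the side-chain cleavage enzyme that makes pregnenolone (Entrez 13070, chromosome 9, 57998024 to 58027031, forward strand). It had 61.9, 54.9 and 66.7 FPKM in the libraries labelled cKO, against 151, 70.4 and 310.1 FPKM in those labelled control. The groups did not overlap, but the gap was narrow, from 66.7 FPKM in cKO replicate 3 to 70.4 FPKM in control replicate 2. The log2 fold change was -1.42 (SE 0.44), and the exact permutation test gave its smallest p, 0.1. Exons of a long non-coding RNA gene, Gm17322, overlap those of Cyp11a1 on the same strand in GENCODE M21, so their reads may be mixed.

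Fdxr and Fdx1, the reductase and the ferredoxin that feed electrons to Cyp11a1 and to other mitochondrial enzymes, were also lower on average, by less. Fdxr (Entrez 14149, chromosome 11, 115268024 to 115277101, reverse strand) had 13.8, 16.2 and 12.7 FPKM in the libraries labelled cKO, against 31.4, 16.6 and 54.5 FPKM in those labelled control. On the FPKM scale its groups were just apart, and on TMM-scaled log2 CPM they overlapped. Fdx1 (Entrez 14148, chromosome 9, 51943023 to 51963602, reverse strand) had 24.3, 19.8 and 18.7 FPKM in the libraries labelled cKO and 35.5, 23.3 and 53.2 FPKM in those labelled control. The single overlap lay between cKO replicate 1 and control replicate 2. The log2 fold changes were -1.15 (SE 0.37) for Fdxr and -0.78 (SE 0.27) for Fdx1, and the exact permutation test gave p = 0.2 for each.

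Of the genes from pregnenolone to testosterone, Hsd3b1 and Hsd3b6 encode the dehydrogenases that turn pregnenolone into progesterone, and Hsd3b6 is the main form of adult mouse Leydig cells. Both lie on the reverse strand of chromosome 3 (Hsd3b6, Entrez 15497, 98805504 to 98814443; Hsd3b1, Entrez 15492, 98842356 to 98859794), 27913 bases apart. Hsd3b6 had 66.1, 36.0 and 42.4 FPKM in the libraries labelled cKO, against 164, 53.4 and 344 FPKM in those labelled control. Hsd3b1 had 31.96, 31.1 and 20.5 FPKM in the libraries labelled cKO, against 70.5, 46.3 and 201 FPKM in those labelled control. Only the groups of Hsd3b1 were apart; for Hsd3b6, cKO replicate 1 lay above control replicate 2. Their log2 fold changes were -1.84 (SE 0.58) and -1.82 (SE 0.50) in the order Hsd3b6, Hsd3b1. The reference transcripts of the pair, 1855 bases for Hsd3b1 and 1802 for Hsd3b6, align at 78.2% identity with a longest shared run of 72 bases. Expected counts of Hsd3b1 were whole in all 6 libraries, and those of Hsd3b6 were not whole in 5, where some of its reads were shared with other genes by estimation.

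Cyp17a1 and Hsd17b3 take the last steps to testosterone: Cyp17a1 cuts progesterone to androstenedione, and Hsd17b3 reduces androstenedione to testosterone. Cyp17a1 (Entrez 13074, chromosome 19, 46667165 to 46673000, reverse strand) was the most abundant of the 10 genes in every library. It had 110, 84.4 and 101 FPKM in the libraries labelled cKO, against 284, 130 and 542 FPKM in those labelled control, with no overlap. Hsd17b3 (Entrez 15487, chromosome 13, 64058274 to 64089262, reverse strand) had 14.96, 22.4 and 15.3 FPKM in the libraries labelled cKO, against 59.8, 30.1 and 141 FPKM in those labelled control, again with no overlap. Its log2 fold change, -2.02 (SE 0.50), was the furthest from 0 of the 10, and that of Cyp17a1 was -1.58 (SE 0.43). The exact permutation test gave 0.1 for each. In DESeq2 the adjusted p was 0.0312 for Hsd17b3, 0.048 for Cyp17a1 and 0.0226 for Fdxr, while over all their alternatives it ran from 0.0085 to 0.377.

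Srd5a1 and Cyp19a1, which act on testosterone once it is made, were expressed at 1.39 to 3.21 FPKM, below the other 8 genes in every library. Srd5a1, the reductase that makes dihydrotestosterone (Entrez 78925, chromosome 13, 69573449 to 69611485, reverse strand), gave expected counts of 69, 75 and 82 in the libraries labelled cKO and 89, 96 and 77 in those labelled control. The groups overlapped, and the log2 fold change was -0.18 (SE 0.22, edgeR adjusted p = 0.583). Cyp19a1, the aromatase that makes oestrogen (Entrez 13075, chromosome 9, 54165937 to 54268164, reverse strand), gave expected counts of 92, 73 and 115 in the libraries labelled cKO, against 59, 89 and 62 in those labelled control. It was the single gene of the 10 with a positive log2 fold change, 0.45 (SE 0.28, edgeR adjusted p = 0.299), and its groups overlapped too. None of the alternatives called either gene. Exons of Gm17108 overlap those of Srd5a1 on the same strand in GENCODE M21.

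In all, 4 of the 10 genes had groups that did not overlap and were lower in the libraries labelled cKO (Cyp11a1, Hsd3b1, Cyp17a1 and Hsd17b3), against 19.8% of all genes tested that were lower without overlap and 18% that were higher. In each of the 8 genes up to testosterone the controls stood in one order, replicate 3 above replicate 1 above replicate 2. Replicate 3 exceeded replicate 2 by 2.28-fold in Fdx1 and by 6.44-fold in Hsd3b6, with the other genes of the 8 between. Within the libraries labelled cKO the highest exceeded the lowest by 1.21-fold in Cyp11a1 and by 2.09-fold in Star, and no replicate was highest or lowest throughout: cKO replicate 1 was highest in 5 of the 10 genes, replicate 2 in 2 and replicate 3 in 3.

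**Figure D2:**
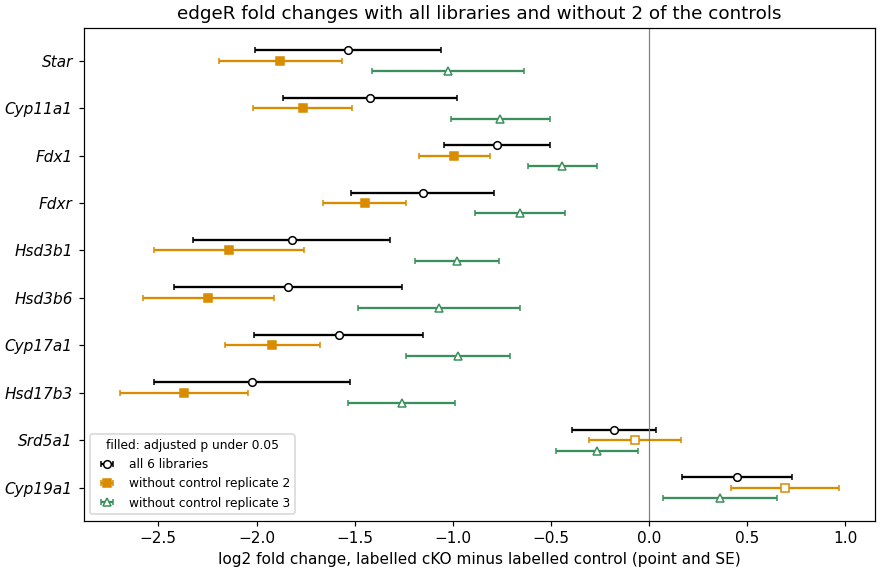
edgeR log2 fold change of each gene, labelled cKO minus labelled control, with its SE, for all 6 libraries and without control replicate 2 or 3. Filled symbols passed an adjusted p of 0.05. Star to Hsd17b3 are filled without control replicate 2 alone; without control replicate 3 they lie between -1.26 and -0.44.

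Promoters of enzymes of the first, middle and last steps are shown as examples, so that the letters near their starts can be compared. RefSeq (GRCm38.p6) gave 11 promoter windows for 8 of the 10 genes, each from 250 bases before to 50 after an annotated start. Capitals mark the letters searched on both strands: AGGTCA, the core site of nuclear receptors such as SF-1, the master regulator of steroidogenic genes, and AGATAA, which is bound by the zinc finger factors Gata4 and Gata6 of the testis. In the Hsd3b1 window that motif stands on the opposite strand and reads TTATCT. The longer SF-1 site CAAGGTCA and the cyclic AMP response element TGACGTCA were searched as well. CAAGGTCA contains AGGTCA. The windows lie at chr9:58014702-58015001 (Cyp11a1, forward strand, the downstream of its annotated starts), chr3:98814394-98814693 (Hsd3b6), chr3:98859745-98860044 (Hsd3b1) and chr13:64089152-64089451 (Hsd17b3), the last 3 on the reverse strand.
Cyp11a1: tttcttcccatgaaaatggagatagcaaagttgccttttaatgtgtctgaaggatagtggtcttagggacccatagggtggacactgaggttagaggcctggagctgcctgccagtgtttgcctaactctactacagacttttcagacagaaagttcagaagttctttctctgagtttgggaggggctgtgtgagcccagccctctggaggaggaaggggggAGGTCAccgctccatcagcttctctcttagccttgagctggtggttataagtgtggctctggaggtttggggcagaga
Hsd3b6: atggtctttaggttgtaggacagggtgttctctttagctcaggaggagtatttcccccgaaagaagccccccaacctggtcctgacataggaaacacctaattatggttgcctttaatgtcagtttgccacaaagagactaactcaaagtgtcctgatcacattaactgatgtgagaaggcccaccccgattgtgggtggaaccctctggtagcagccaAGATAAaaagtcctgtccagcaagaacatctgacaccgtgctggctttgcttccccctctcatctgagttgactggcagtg
Hsd3b1: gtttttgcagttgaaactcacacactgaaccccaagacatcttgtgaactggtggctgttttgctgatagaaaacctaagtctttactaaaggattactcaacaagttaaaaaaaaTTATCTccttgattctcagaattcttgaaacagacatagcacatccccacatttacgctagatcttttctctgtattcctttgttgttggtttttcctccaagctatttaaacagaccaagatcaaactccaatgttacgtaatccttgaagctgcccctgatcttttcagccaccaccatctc
Hsd17b3: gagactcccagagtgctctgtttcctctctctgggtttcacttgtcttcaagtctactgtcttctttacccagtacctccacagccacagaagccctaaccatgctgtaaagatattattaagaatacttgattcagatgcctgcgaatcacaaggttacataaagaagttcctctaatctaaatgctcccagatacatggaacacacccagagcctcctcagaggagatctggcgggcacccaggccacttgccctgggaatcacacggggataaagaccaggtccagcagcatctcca

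AGGTCA stood 28 bases before the Cyp11a1 start shown and in 1 window of Cyp19a1, so in 2 of 11 windows, beside 16.3% of all 32851 promoter windows. AGATAA lay 31 bases before the start of Hsd3b6 and 134 before that of Hsd3b1, on opposite strands, again in 2 of 11 windows, beside 11.2% of all. Neither CAAGGTCA nor TGACGTCA was found in the 11 windows; 1.56% and 1.79% of all windows hold them in that order. The Hsd3b6 and Hsd3b1 windows align at 50.1% identity. These matches describe letters, not bound sites.

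By level per length, Cyp17a1 led in both groups, and Srd5a1 and Cyp19a1 came last. In the libraries labelled cKO the mean FPKM ran from Cyp17a1 (98.5) through Cyp11a1 (61.2), Hsd3b6 (48.2), Hsd3b1 (27.9), Fdx1 (20.9), Hsd17b3 (17.6), Star (16.8), Fdxr (14.2) and Cyp19a1 (2.59) to Srd5a1 (1.53). Cyp17a1 and Cyp11a1, Hsd3b6 and Hsd3b1, Fdxr and Cyp19a1, and Cyp19a1 and Srd5a1 had ranges apart, and the other 5 neighbouring pairs in that order overlapped. Among the libraries labelled control the order was Cyp17a1 (319), Hsd3b6 (187), Cyp11a1 (177), Hsd3b1 (106), Hsd17b3 (77.1), Star (52.5), Fdx1 (37.3), Fdxr (34.2), Cyp19a1 (2.0) and Srd5a1 (1.85). There, of all neighbours, Fdxr and Cyp19a1 alone had ranges apart.

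Ratios of FPKM within a library set the enzymes against each other without reference to depth. The groups overlapped in each of the 8 ratios compared. The exact two-sided permutation p was 0.2 to 0.9, and 0.533 to 0.9 after Benjamini-Hochberg adjustment over the 8. With 3 libraries per group this p cannot fall below 0.1 even before adjustment, so the test cannot decide whether a ratio differed. Hsd3b1 stood at 0.484, 0.862 and 0.484 of Hsd3b6 in the libraries labelled cKO, against 0.431, 0.868 and 0.585 in those labelled control, highest in replicate 2 of both groups. Cyp17a1 stood at 1.61 ± 0.143 times Cyp11a1 in the libraries labelled cKO, against 1.83 ± 0.0711 times in those labelled control (SD, n = 3 each), the tightest ratio of the 8. Hsd17b3 relative to Cyp11a1 was 0.242, 0.408 and 0.230 in the libraries labelled cKO, against 0.397, 0.428 and 0.456 in those labelled control, with cKO replicate 2 inside the control range. Star relative to Cyp11a1 was 0.394, 0.213 and 0.212 in the libraries labelled cKO, against 0.346, 0.296 and 0.272 in those labelled control. In this ratio cKO replicate 1 was the highest of all 6.

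Other genes made by Leydig cells lay in the same direction. The 9 Leydig markers, none of which is a gene of testosterone synthesis listed above, had a median log2 fold change of -2.13. All 9 were negative and 8 of the 9 were lower without overlap, beside 19.8% of all genes. The median was -1.27 without control replicate 3 and -2.44 without control replicate 2. Their summed level was 1249 to 1483 FPKM in the libraries labelled cKO and 1851 to 9105 FPKM in those labelled control. Most of that sum came from Insl3 in every library. Insl3, the peptide hormone of Leydig cells, had 955, 1110 and 1001 FPKM in the libraries labelled cKO, against 2845, 1337 and 7339 FPKM in those labelled control. Lhcgr, the receptor for luteinising hormone, had 2.88, 1.77 and 1.92 FPKM in the libraries labelled cKO and 8.39, 4.76 and 18.4 FPKM in those labelled control. Lhcgr is also counted below among the receptors and regulators of steroid production, and its log2 fold change is the median of the 9 markers. The log2 fold changes were -1.80 (SE 0.52) for Insl3, -2.13 (SE 0.51) for Lhcgr, -1.54 (SE 0.38) for Ptgds and -0.23 (SE 0.13) for Gramd1b.

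Set beside those 9 markers in the same library, none of the 10 genes had a lower mean in the libraries labelled cKO. On the scale of log2 CPM minus the mean log2 CPM of the markers, the difference between the groups was 0.01 for Hsd17b3, 0.21 for Hsd3b1, 0.25 for Hsd3b6, 0.38 for Star, 0.41 for Cyp17a1, 0.60 for Cyp11a1, 0.78 for Fdxr and 1.08 for Fdx1. Hsd17b3 averaged -0.40 ± 0.20 in the libraries labelled cKO and -0.41 ± 0.06 in those labelled control. Cyp11a1 averaged 1.895 ± 0.265 in the libraries labelled cKO and 1.297 ± 0.058 in those labelled control (SD, n = 3 each), without overlap. Fdx1, Fdxr, Srd5a1 and Cyp19a1 also had higher values without overlap in the libraries labelled cKO, each at the smallest exact permutation p of 0.1. The marker mean that is subtracted was itself lower there without overlap, with a difference of -1.79 log2 units. A gene of equal log2 CPM in both groups therefore comes out higher on this scale. Srd5a1 and Cyp19a1, whose own levels overlapped between the groups, differed by 1.62 and 2.23 on it. Over the 6 libraries Hsd17b3 spanned 3.10 log2 units by itself and 0.36 relative to the markers, and Cyp17a1 spanned 2.56 and 0.78. The span was wider relative to the markers for Fdx1 (1.41 by itself and 1.88 relative), Srd5a1 (0.46 and 3.11) and Cyp19a1 (1.0 and 3.89). Against Insl3 alone, or without the 3 kallikreins Klk1b21, Klk1b24 and Klk1b27, the differences of Hsd17b3, Hsd3b1 and Hsd3b6 were negative: -0.30, -0.098 and -0.056 against Insl3, and -0.36, -0.15 and -0.11 without the kallikreins. Cyp11a1, Srd5a1 and Cyp19a1 overlapped between the groups against Insl3 alone, with exact permutation p of 0.3, 0.3 and 0.2 in that order. For Fdx1 and Fdxr it stayed at 0.1 there.

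**Figure D3:**
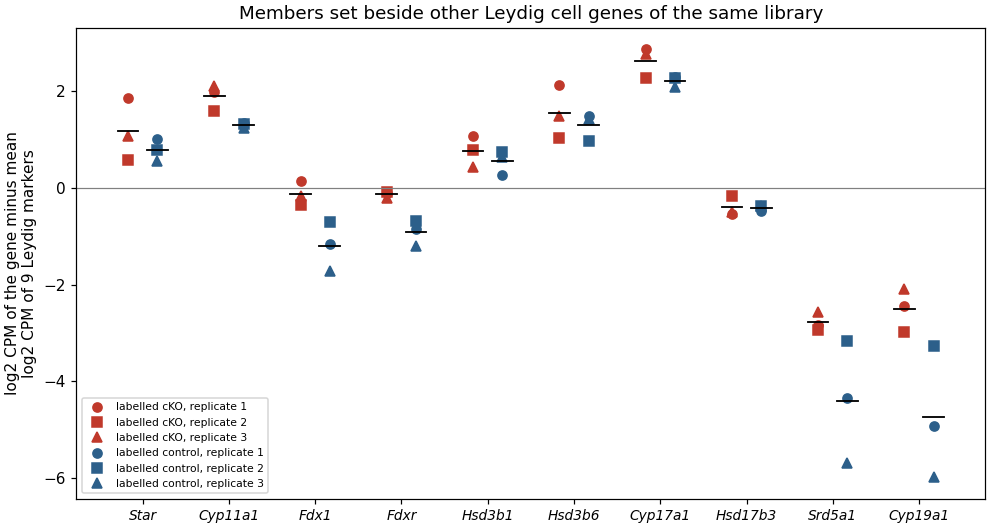
Log2 CPM of each gene minus the mean log2 CPM of 9 Leydig cell markers, per library, with libraries labelled cKO at left of each pair; black lines are group means. Hsd17b3 has nearly equal means of -0.40 and -0.41, whereas Fdx1, Fdxr, Srd5a1 and Cyp19a1 lie higher in the libraries labelled cKO. The marker mean that is subtracted is itself lower in the libraries labelled cKO.

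Markers of other somatic cell types lay in the same direction as well. All 12 Sertoli markers, led in level by Clu, were negative, with a median log2 fold change of -0.97 (-0.57 without control replicate 3) and a summed level of 901 to 945 FPKM in the libraries labelled cKO against 1187 to 2973 FPKM in those labelled control. The 10 macrophage markers, led by Lyz2, were all negative. Their median log2 fold change was -1.45 (-0.83 without control replicate 3), beside -1.48 (-0.87) for the 10 genes of testosterone synthesis. Their sum was 47.9 to 55.5 FPKM in the libraries labelled cKO against 55.6 to 242 FPKM in those labelled control. In the same order, the 6 peritubular myoid markers, led by Myl9, summed to 56.9 to 70.9 FPKM against 68.9 to 147 FPKM. The 7 endothelial markers, led by Cldn5, summed to 10.6 to 15.02 FPKM against 14.3 to 25.6 FPKM. The myoid median was -0.66 (-0.39 without control replicate 3) and the endothelial median -0.69 (-0.31). Of the endothelial markers, 6 had a negative log2 fold change and 1 a positive one. The 6 spermatogonial markers, led by Uchl1, summed to 65.9 to 70.8 FPKM in the libraries labelled cKO and 80.1 to 99.5 FPKM in those labelled control. Of these spermatogonial markers, 4 were negative and 2 positive. Germ cell markers of later stages lay the other way. The 6 spermatocyte markers, led by Ldhc, summed to 3341 to 3462 FPKM in the libraries labelled cKO and 2505 to 3361 FPKM in those labelled control, and the 8 spermatid markers, led by Prm1, to 23290 to 25662 FPKM and 16099 to 22652 FPKM in the same order. The part of the makeup of the tissue in the differences of the pathway genes was not tested.

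Steroidogenic cells can also come from the adrenal cortex, and tissue dissected with the testis can hold fat or epididymis. Of 6 adrenal markers, the corticosteroid enzymes Cyp11b1 and Cyp11b2 were at 0.20 FPKM or less in every library, and Mc2r, the receptor for corticotropin, was not listed in the 3 libraries labelled cKO and was at 0.07 FPKM or less in those labelled control. Cyp21a1 was detected, at 2.61, 4.17 and 0.80 FPKM in the libraries labelled cKO and 16.6, 3.76 and 23.6 FPKM in those labelled control. Mrap, an accessory protein of that receptor, averaged 3.31 FPKM in the libraries labelled cKO and 10.7 FPKM in those labelled control, and Akr1b7 lay at 2.75 to 3.56 FPKM and 2.90 to 3.26 FPKM in the same order. The sum of the adrenal list was 6.57 to 11.2 FPKM in the libraries labelled cKO and 10.1 to 45.8 FPKM in those labelled control. The 7 adipocyte markers, led by Adipoq, summed to 6.29 to 13.01 FPKM against 7.04 to 8.69 FPKM in the same order. The 7 epididymis markers, led by Rnase10, summed to 0.45 to 2.96 FPKM in the libraries labelled cKO and 0.04 to 4.01 FPKM in those labelled control, and Lcn5 and Lcn8 were listed in no library.

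**Figure D4:**
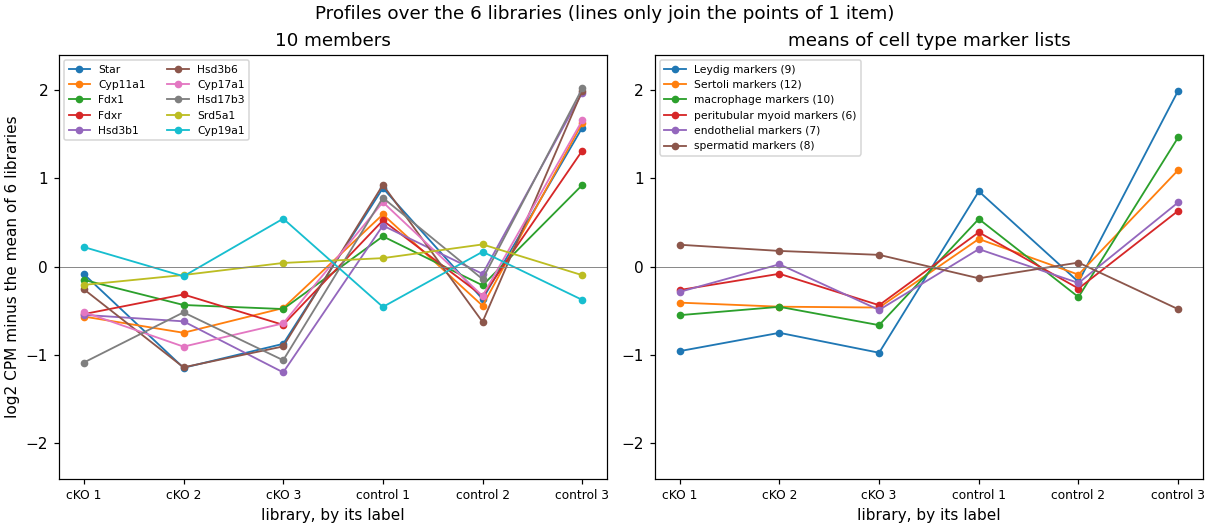
Log2 CPM minus the mean of the 6 libraries, for the 10 genes (left) and for the means of 6 marker lists (right), with libraries labelled cKO before those labelled control; lines join the points of 1 item and show no order. Control replicate 3 is the highest library of the 8 genes from Star to Hsd17b3 and of the Leydig, Sertoli and macrophage lists, and the lowest of the spermatid list.

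Beyond the 10 genes, 60 other genes of steroid production and metabolism were read out in 5 groups by role, and 43 of them were tested. None was called in edgeR. Of the 43, 37 were negative, 28 were lower and 3 higher at an unadjusted p under 0.05, beside 18.8% and 8.85% of all genes. DESeq2 called 19 lower and 0 higher, beside 7.66% and 0.405% of all genes. Without control replicate 2 edgeR called 34 lower and 2 higher of 45 tested, beside 20.7% and 11% of all genes. With any other single library left out, edgeR called 0 of these pathway genes. The median of -0.89 over the tested genes was -0.45 without control replicate 3.

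Among 12 receptors and regulators, of which 11 were tested, the median log2 fold change was -0.65 (-0.43 without control replicate 3). Lhcgr, given above, and Nr5a1, which encodes SF-1, had the smallest p. Nr5a1 had 11.1, 9.74 and 10.2 FPKM in the libraries labelled cKO, against 25.2, 13.2 and 51.9 FPKM in those labelled control (log2 -1.43, SE 0.42), with no overlap. Nr4a1, an orphan receptor induced by luteinising hormone, and Crem, a cyclic AMP responsive factor of spermatids, were the genes of this group higher without overlap in the libraries labelled cKO, and were chosen after their values were seen. Nr4a1 had 19.6, 19.0 and 19.1 FPKM in the libraries labelled cKO against 17.1, 16.3 and 10.9 FPKM in those labelled control (log2 0.48, SE 0.18).

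The 12 genes that supply cholesterol to mitochondria were all tested and had a median of -0.93 (-0.53 without control replicate 3), with 10 negative. Vdac1, a channel of the outer mitochondrial membrane, had 11.9, 11.2 and 10.9 FPKM in the libraries labelled cKO and 23.2, 15.2 and 41.4 FPKM in those labelled control (log2 -1.12, SE 0.31). Its groups did not overlap. Lipe, the hormone-sensitive lipase and also a gene chosen after its values were seen, lay the other way, with a mean of 119 FPKM in the libraries labelled cKO and 100.4 FPKM in those labelled control.

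All 6 genes of the other electron donors were tested, with a median of -0.74 (-0.38 without control replicate 3). H6pd, which makes NADPH in the endoplasmic reticulum, had 4.03, 3.78 and 3.43 FPKM in the libraries labelled cKO, against 9.21, 4.14 and 14.1 FPKM in those labelled control (log2 -1.18, SE 0.37). Cyb5b, an outer mitochondrial membrane cytochrome, had 18.4, 17.5 and 17.8 FPKM in the libraries labelled cKO, against 27.9, 21.0 and 48.8 FPKM in those labelled control. On the FPKM scale both genes were lower in every library labelled cKO, with control replicate 2 the nearest, whereas on TMM-scaled values the groups of H6pd overlapped.

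Of 16 other hydroxysteroid dehydrogenases, 6 were abundant enough to be tested and all 6 were negative, with a median of -1.37, which was -0.56 without control replicate 3. Hsd17b7, an enzyme of cholesterol synthesis that can also reduce oestrone, had 1.17, 0.72 and 0.92 FPKM in the libraries labelled cKO, against 3.72, 1.66 and 6.47 FPKM in those labelled control (log2 -1.96, SE 0.46). Hsd17b11 had 4.86, 4.20 and 4.10 FPKM in the libraries labelled cKO and 13.3, 7.12 and 32.1 FPKM in those labelled control (log2 -1.88, SE 0.48). Of other genes of the Hsd3b cluster, Hsd3b2, Hsd3b3 and Hsd3b5 were read out and were at 0.44 FPKM or less in every library.

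The 14 genes of androgen conversion and action, 8 of them tested and all 8 negative, had a median of -0.89 (-0.54 without control replicate 3). Sult1e1, which sulphates oestrogens, had 9.31, 7.85 and 4.70 FPKM in the libraries labelled cKO, against 33.2, 10.1 and 95.6 FPKM in those labelled control (log2 -2.55, SE 0.72). Sts, the steroid sulphatase, had 1.78, 1.69 and 1.39 FPKM in the libraries labelled cKO and 3.86, 2.25 and 4.97 FPKM in those labelled control (log2 -1.08, SE 0.30). Both had groups that did not overlap. The other 5-alpha reductase of classical androgen action, Srd5a2, was at 0.27 FPKM or less in every library.

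**Figure D5:**
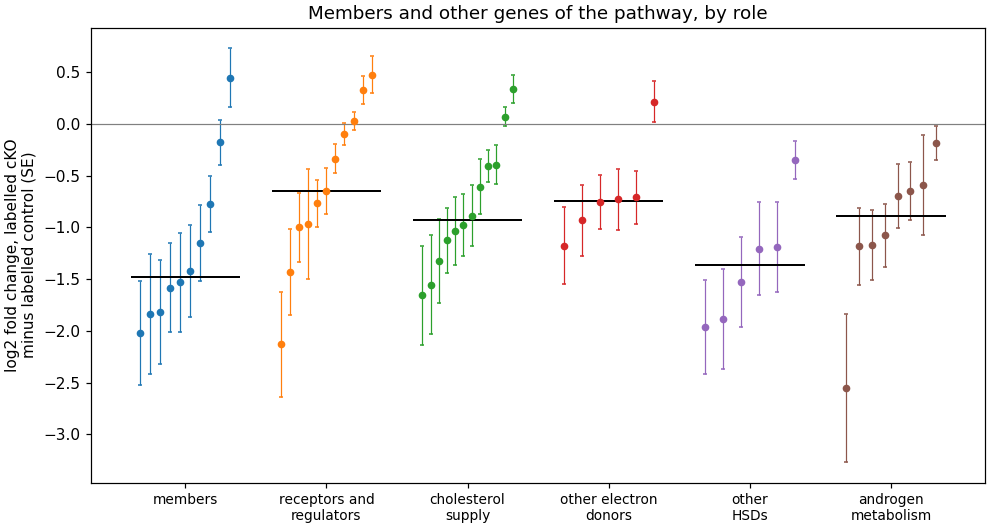
edgeR log2 fold change, labelled cKO minus labelled control, with SE, of each tested gene, sorted within 6 role groups; black lines are medians. The medians run from -1.48 in the 10 genes of testosterone synthesis to -0.65 in the receptors and regulators, and none of the genes shown passed an adjusted p of 0.05.

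The genes most like testosterone synthesis over the 6 libraries were sought by the root mean square difference between centred log2 CPM profiles, with the mean profile of Star, Cyp11a1, Cyp17a1, Hsd3b6 and Hsd17b3 as the pattern. Of 8469 genes compared, the 5 nearest were Gpt2 (0.064), Fads1 (0.080), Slc7a8 (0.087), Mgst1 (0.10) and Cxcl12 (0.11 log2 units). Cyp17a1 itself lay at 0.083 from that mean profile and Star at 0.22. Both are part of that mean, so their distances cannot be set against those of the 5 genes. Gpt2, a mitochondrial alanine transaminase, had 14.2, 11.6 and 11.6 FPKM in the libraries labelled cKO, against 36.5, 17.7 and 79.95 FPKM in those labelled control. Mgst1, a microsomal glutathione transferase, had 29.4, 25.1 and 27.4 FPKM in the libraries labelled cKO and 72.4, 33.0 and 165 FPKM in those labelled control. These genes were picked for their likeness over the same libraries, so their values are a description.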

How the data were processed

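The authors deposited 1 table per library with, per the file headers, an expected count, an FPKM value and a length for each gene. Expected counts in the deposited tables are RSEM's estimated counts, not normalized. The deposited FPKM values were normalized by the authors to transcript length and library size. Genes that a table does not list count as 0 there. The submitters' processing notes name bcl2fastq 2.16, HISAT2 2.0.4, Bowtie2 2.2.5, RSEM, DESeq2 and mm10, with no role or order. Whether counting used strand is not given in those sources.

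Expected counts were rounded and tested across all genes with edgeR 4.0.16 in R 4.3.3: filterByExpr (minimum count 10, minimum total 15), TMM scaling and the quasi-likelihood test, with Benjamini-Hochberg adjustment at 0.05 over 18269 genes. Log2 CPM used a prior count of 2. DESeq2 1.42.0, limma 3.58.1 on FPKM (pseudocount 1 or 0.1 before the log2, and a floor of 1 FPKM in 3 libraries), other scalings and filters, and leaving out each library were alternatives. The code was tested on simulated data for its recovery of set changes, at a spread that was not that of these libraries. Single values were tested by exact permutation over libraries. Fold changes are labelled cKO minus labelled control.

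The genes and lists were chosen with earlier results of these data known. Of the 60 other pathway genes, 4 were in no table, as were 2 of the epididymis markers. Named genes were the 10 members, L3mbtl2, the 2 genes with the smallest p of each role group, Insl3, Lhcgr and the 2 most abundant other Leydig markers, the most abundant gene of each other marker list, and the 5 genes nearest in profile. Nr4a1, Crem, Lipe, Srd5a2, Hsd3b2, Hsd3b3, Hsd3b5 and the adrenal markers other than Cyp21a1 are named outside it, chosen after their values were seen. A gene that this rule names in the cholesterol group is not reported here. Positions and promoters are RefSeq's on GRCm38.p6, the primary assembly of mm10.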

Additional observations from a re-analysis of the deposited data

How the results depend on the processing

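The median log2 fold change of the 10 genes stayed negative under 14 alternatives, from -1.82 to -0.87, and no log2 fold change of the 10 genes changed sign. The number of genes called, 0 with all libraries in edgeR, was 1435 in DESeq2, 1 in limma on either FPKM scale, and 0 to 5900 when libraries were left out one at a time: 5900 without control replicate 2, 3 without cKO replicate 2, 2 without control replicate 3 and 1 without cKO replicate 3. Of the 10 genes, 3 were called in DESeq2 and 0 to 8 with libraries left out, the 8 without control replicate 2. Of the other pathway genes, 19 were called in DESeq2 and 0 to 36, again without control replicate 2. The cause was not tested.

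The median difference relative to the Leydig markers, 0.51, was 0.19 against Insl3 alone, 0.14 without the kallikreins, and 0.42 to 0.71 with libraries left out. Negative values were found for Hsd3b1 (-0.098 against Insl3, -0.15 without the kallikreins), Hsd3b6 (-0.056, -0.11, and -0.032 to 0.51 with libraries left out) and Hsd17b3 (-0.30, -0.36, -0.097 on log2(FPKM + 1), -0.015 on log2(FPKM + 0.1), and -0.10 to 0.079 with libraries left out). The 5 CPM filter removed Srd5a1 and Cyp19a1. Scaling by library totals alone shifted the median of all genes to -0.10.

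Same-numbered libraries did not deviate together across genes (correlations of 0.043, -0.0067 and -0.039). With 3 libraries per group this does not settle whether the numbers pair them. With the replicate number as a block, 0 genes were called and the median of the 10 genes was -1.28.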
